A study of Mus musculus with 16 samples.

Results

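The change over embryonic day (E) of the knockout effect in the fetal testis was followed in 8 male samples of 16 in the series. The 4 male knockout samples (Nanos3-/-) and the 4 male heterozygous samples (Nanos3+/-) were whole gonads taken daily from E12.5 to E15.5, with 1 sample per genotype and day. The other 8 samples are the female knockouts and heterozygotes of the same days, and enter here only to share the estimate of the spread and to test whether the sexes differ. The comparison group is heterozygous, so every sample carries at least 1 knockout allele of Nanos3, and the labels give neither the strain nor the construction of the allele. By its title each sample combines replicates 1 and 2, and these were not analysed one by one. In the free-text field the female samples are also called male, and sex was taken here from the titles and the sex characteristic of the labels. For each gene the log2 difference, knockout minus heterozygous, was taken on each day. Its slope over the 4 days was fitted, and also the late minus early change, the mean of E14.5 and E15.5 minus the mean of E12.5 and E13.5.

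Primordial germ cells survive only with NANOS3, an RNA-binding protein, so knockout gonads lose germ cells while their somatic cells develop. In the fetal testis of the mouse, germ cells first keep genes of the pluripotency network and then take the male path. They stop dividing, switch on Nanos2 and de novo DNA methylation through DNMT3L and DNMT3A, and assemble the piRNA pathway, in which PIWI proteins and small RNAs silence transposons. A sample of whole gonad holds germ cells, Sertoli cells, Leydig cells and other cells together. In such bulk samples fewer cells of a type and less RNA per cell cannot be told apart.

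Levels are given as the log2 ratio of a gene's signal to the typical signal of its probe, so levels of different genes are not compared. Nanos3 itself had levels of -0.05, 0.03, -0.40 and -0.71 in knockout testes from E12.5 to E15.5, against 1.69, 3.49, 2.98 and 0.92 in heterozygous testes. The genotypes did not overlap, and the difference had no slope that passed the test (0.04 ± 0.33 per day, adjusted p = 0.963). The position of the Nanos3 probe relative to the deletion is not given, so its level may not check the genotype. Ddx4, the germ cell RNA helicase, stayed between -5.55 and -5.04 in knockout testes and between 1.04 and 2.59 in heterozygous testes. Weak signals had been raised to a detection limit, and between 4450 and 11174 probes stood at it in the knockout samples, against 4405 to 8459 in the heterozygous ones. On a common scale the limit was at 0.02, 0.00, 0.55 and 0.89 (log2) in knockout samples by day, against 0.00, -0.03, 0.27 and 0.07 in heterozygous samples.

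Among genes whose slope passed the test, the difference between the genotypes moved down over the days far more often than up. Over all genes tested, 8640 slopes were above 0 and 7941 below 0. By limma, 681 of 16581 genes had a slope at an adjusted p under 0.05, which is 4.11% of the genes tested. Of these, 607 genes (3.66%) became lower in knockout relative to heterozygous testes and 74 genes (0.446%) became higher. At an unadjusted p under 0.05 the number was 3748 (22.6%). Genes at least 2-fold lower in knockout testes numbered 857 at E12.5 (5.17%), 1390 at E13.5 (8.38%), 1618 at E14.5 (9.76%) and 2131 at E15.5 (12.9%). Genes at least 2-fold higher numbered 440 (2.65%), 417 (2.51%), 325 (1.96%) and 331 (2.0%) on the same days. The median difference of all genes was 0.10, 0.09, 0.15 and 0.12 by day, with a median slope of 0.009 per day.

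These calls rest on all 4 days and on both sexes sharing 1 estimate of the spread. A gene whose female differences do not vary gains no scatter from females, so its error can be too small. Fitted on the male samples alone, limma called 0 genes, with 3824 at an unadjusted p under 0.05. Without E12.5 the number called was 68, without E13.5 154, without E14.5 16 and without E15.5 2. All 681 called genes kept the sign of their slope without any 1 of the days, and the fit on males alone leaves the slopes as they are and changes only their error. With the arrays as deposited the median slope of all genes fell to -0.19 per day and 2050 genes were called. That scaling kept the sign of all 681 slopes. These genes were picked by their slope in the same data, so a kept sign in these fits is no separate support.

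Among the 607 genes with a negative slope, the median difference was 0.30 at E12.5, -0.28 at E13.5, -1.62 at E14.5 and -2.45 at E15.5. On E12.5, 440 of them lay within 2-fold of the heterozygous level and were at least 2-fold lower at E15.5. A further 30 were at least 2-fold lower on both of these days, and 63 were at least 2-fold higher at E12.5 and at least 2-fold lower at E15.5. The difference fell at every step in 521 of the 607, a pattern that a straight-line test favours. These counts describe the genes picked by that test and are no separate support for it. Both genotypes were also fitted on their own. The slope within knockout testes was called negative in 67 of the 607, and the slope within heterozygous testes was called positive in 423. Over all genes tested, the knockout slope was called negative in 419 (2.53%) and the heterozygous slope positive in 1771 (10.7%). The median slope of the 607 was -0.18 per day in knockout testes and 0.78 per day in heterozygous testes. The heterozygous testes moved more than the knockout testes in 472 of these genes, a share that was not counted over all genes tested. In 26 of them the knockout samples were at the detection limit on all 4 days, and in 514 on none.

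**Figure D1:**
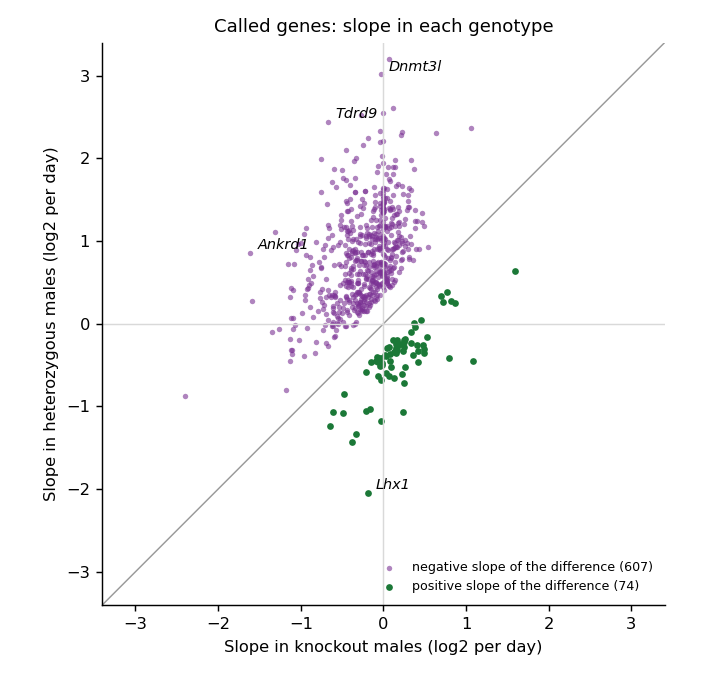
Slope over embryonic day in log2 per day, in knockout males on the horizontal axis and in heterozygous males on the vertical axis, for the 681 genes whose difference had a called slope. The 607 genes with a negative slope of the difference lie above the diagonal, most of them near 0 on the knockout axis, and the 74 with a positive slope lie below it. The side of the diagonal follows from the sign of the slope.

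Genes of the piRNA pathway were among those whose difference deepened. Of 18 listed genes 16 were tested, and 5 had a called negative slope and 0 a called positive one, beside 3.66% and 0.446% of all genes. Fkbp6 had no probe with this symbol alone and Piwil4 did not pass the filter on low values. Of the 16, 14 had a slope below 0, with a median of -0.91 per day. The median difference of the list was -2.84, -5.10, -6.89 and -6.93 by day. A gene could pass the filter through the heterozygous samples alone, so these counts describe the genes that passed and not the whole list. The same holds for the other gene lists below. Without E12.5 the median slope of the list was -0.40 per day, 10 of 16 slopes were below 0 and 0 were called, with 5 at an unadjusted p under 0.05. With quantile normalization the median was -0.46, and without the common limit -0.51.

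The promoters of 3 of the called piRNA pathway genes are shown as examples whose promoters hold the E-box. Each is 300 bases from RefSeq (GRCm38.p6), 250 before and 50 after the first listed start, written along the gene's strand from 5′ to 3′. Capitals mark the palindromic E-box CACGTG, the same on both strands.
Tdrd9 (chr12:111971309-111971608, plus strand): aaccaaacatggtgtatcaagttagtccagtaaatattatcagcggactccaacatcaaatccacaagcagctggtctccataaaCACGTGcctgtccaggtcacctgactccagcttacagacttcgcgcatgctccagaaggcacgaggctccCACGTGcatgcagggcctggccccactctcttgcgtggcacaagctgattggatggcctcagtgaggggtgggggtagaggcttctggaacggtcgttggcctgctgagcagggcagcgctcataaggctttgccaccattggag
Tdrd1 (chr19:56825959-56826258, plus strand): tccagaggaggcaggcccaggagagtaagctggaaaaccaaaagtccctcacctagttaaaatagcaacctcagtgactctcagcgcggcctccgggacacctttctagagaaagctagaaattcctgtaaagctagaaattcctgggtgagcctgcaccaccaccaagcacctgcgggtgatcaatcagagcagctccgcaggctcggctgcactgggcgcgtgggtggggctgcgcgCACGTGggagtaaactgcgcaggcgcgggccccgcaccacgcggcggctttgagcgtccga
Piwil1 (chr5:128735996-128736295, plus strand): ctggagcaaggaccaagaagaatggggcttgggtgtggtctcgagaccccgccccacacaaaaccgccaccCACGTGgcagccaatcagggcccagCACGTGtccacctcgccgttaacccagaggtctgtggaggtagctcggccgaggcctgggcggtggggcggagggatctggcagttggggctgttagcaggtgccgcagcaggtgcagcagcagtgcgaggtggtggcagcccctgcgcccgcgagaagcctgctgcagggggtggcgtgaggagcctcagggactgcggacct
The E-box was found in 6 of the 14 piRNA pathway promoters in the RefSeq table (42.9%). It was found in 9.65% of 487 promoters of genes with a negative slope and in 7.94% of 63 with a positive slope, among them Epcam. Of the promoters of tested genes 9.28% of 13270 held it, and of all promoters 7.24% of 27025. A match of these letters is a description of the sequence and not evidence of binding.

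Tdrd9, a helicase of the piRNA pathway, had levels of -0.39, -1.18, -1.75 and -2.42 in knockout testes from E12.5 to E15.5, against 0.38, 3.33, 7.01 and 7.29 in heterozygous testes. The genotypes lay 0.76 apart at E12.5 and were 836-fold apart at E15.5, with the knockout lower on every day. The slope of the difference was -3.11 ± 0.36 per day (adjusted p = 0.0102). The heterozygous slope was 2.44 ± 0.29 (adjusted p = 0.000636), while the knockout slope of -0.67 ± 0.29 did not pass the test (adjusted p = 0.192).

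Piwil2, a PIWI protein that germ cells make from early stages on, stood at -2.81, -3.12, -2.85 and -3.57 in knockout testes and at 1.03, 2.37, 4.38 and 4.23 in heterozygous testes. It was thus already 14.4-fold lower in knockouts at E12.5, and the gap widened by a slope of -1.36 ± 0.13 per day (adjusted p = 0.00724), or -0.63 with quantile normalization, where it was not called. Tdrd1, a scaffold that binds PIWI proteins, stood at -1.43, -1.48, -0.85 and -1.24 in knockout testes and at 0.41, 3.21, 5.70 and 5.59 in heterozygous testes. Its slope was -1.69 ± 0.29 (adjusted p = 0.0294), while the slope within knockout testes was 0.12 ± 0.25 (adjusted p = 0.816). Without E12.5 the slope of the Tdrd1 difference was -1.07 and not called (adjusted p = 0.232).

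Piwil1, a PIWI protein best known from meiotic male germ cells, stood at the detection limit in every one of the 4 knockout samples, against 0.44, 3.35, 4.45 and 5.55 in heterozygous testes. The knockout was therefore at least 41.4-fold lower at E15.5, and the fitted slope was -1.64 ± 0.33 (adjusted p = 0.0434), or -1.09 and not called with quantile normalization. Henmt1, which methylates the ends of piRNAs, was the fifth called gene of the list and is named after its values were seen. It was at the limit in 3 of 4 knockout samples, and at 0.33 at E13.5. Its heterozygous levels were -0.11, 3.97, 6.31 and 6.43, and its slope was -2.24 ± 0.47 (adjusted p = 0.0486), or -1.45 without E12.5 (adjusted p = 0.343). For Gtsf1, a partner of PIWI proteins also chosen after its values were seen, the slope of -2.37 ± 0.62 did not pass the test (adjusted p = 0.0866). Its difference was -4.98 at E12.5 and -12.42 at E15.5. Mael, a germ cell gene of transposon silencing, had differences of -7.28 and -11.08 on those days and a slope that did not pass (-1.27 ± 0.39, adjusted p = 0.124).

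Of 10 genes of DNA methylation, 2 had a called slope, both negative, beside 3.66% of all genes. Dnmt3l, the cofactor of de novo methylation in germ cells, stood at 0.62, -0.03, 0.32 and 0.42 in knockout testes from E12.5 to E15.5, against -0.01, 4.54, 7.89 and 8.94 in heterozygous testes. The knockout was slightly above the heterozygote at E12.5 and 367-fold below it at E15.5. The slope of the difference was -3.04 ± 0.49 per day (adjusted p = 0.0244), with a heterozygous slope of 3.02 ± 0.32 (adjusted p = 0.000401) and a knockout slope of -0.03 ± 0.32 (adjusted p = 0.987). Without E12.5 the slope of the difference was -1.97 (adjusted p = 0.191). Dnmt3a, the methyltransferase that DNMT3L works with, stood at -0.01, -0.15, -0.54 and -0.56 in knockout testes and at -0.06, 0.47, 1.63 and 1.71 in heterozygous testes. Its slope was -0.85 ± 0.14 (adjusted p = 0.0279) and its late minus early change -1.94 ± 0.30 (adjusted p = 0.0463). Dnmt3a had 3 probes, whose slopes ran from -0.85 to -0.21. The other 8 genes of the list had no called slope, among them Tet1, a 5-methylcytosine oxidase, at 0.51 ± 0.13 (adjusted p = 0.0797).

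**Figure D2:**
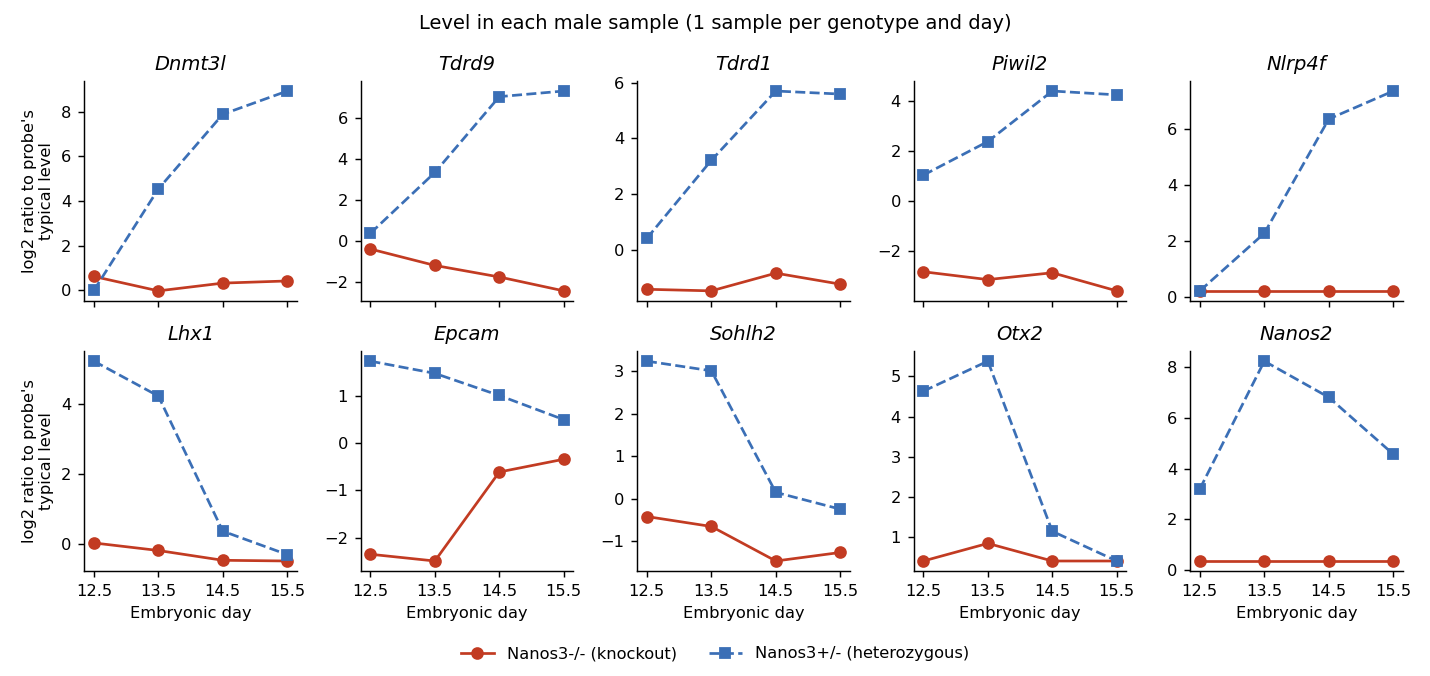
Level of 10 genes in each male sample as log2 ratio to the probe's typical level, against embryonic day, with knockout as circles and heterozygous as squares. In the upper row the heterozygous level rises over the days while the knockout stays low, and in the first 4 panels of the lower row the heterozygous level is lower at E15.5 than at E12.5 and the gap narrows. Flat lines at the bottom of the Nlrp4f, Otx2 and Nanos2 panels are samples at the detection limit.

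The 10 most negative called slopes also included genes with no listed role in these pathways. Sly, a multicopy Y-linked gene of male germ cells, had a slope of -3.14 ± 0.47 (adjusted p = 0.0206). Its female differences were 0 on all 4 days, so females added no scatter and this error may be too small. Its heterozygous levels were 0.48, which is the detection limit, and then 3.43, 8.70 and 9.39. The knockout was at the limit on 3 of 4 days. Sly shares sequence with near copies on the Y chromosome, so its probe may read several of them. Nlrp4f, of a gene family known from mouse oocytes, stood at the limit on all 4 days in knockouts. In heterozygous testes it was at the limit at E12.5 and then at 2.27, 6.35 and 7.35. The genotypes were at least 140-fold apart at E15.5, and the fitted slope is taken against the limit (-2.55 ± 0.39, adjusted p = 0.0212). Esx1, an X-linked homeobox gene of placenta and male germ cells, stood at 1.85 at E12.5 and at the limit on the other 3 days in knockout testes, against the limit at E12.5 and then 0.41, 4.72 and 5.90 in heterozygous testes. The knockout was at least 46.9-fold lower at E15.5, and the fitted slope is taken against the limit (slope -2.55 ± 0.49, adjusted p = 0.04).

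Hsd17b2, an enzyme that inactivates estradiol and testosterone, had levels of -1.63, -3.20, -3.09 and -4.19 in knockout testes, against -3.97, -3.67, -0.90 and 1.76 in heterozygous testes. The knockout was 5.06-fold higher at E12.5 and 62.0-fold lower at E15.5. Its slope of -2.75 ± 0.19 (adjusted p = 0.00347) was still called without E12.5, at -3.21 (adjusted p = 0.0453). Ikzf3, a zinc finger factor of lymphoid cells, had differences of 0.03, -1.02, -4.47 and -7.12 (slope -2.49 ± 0.23, adjusted p = 0.00724). Its 3 probes ran from -2.49 to 0.16 in slope and so disagreed in sign, and their mean had a slope of -0.82.

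The late minus early split called 155 genes (0.935%), 148 negative (0.893%) and 7 positive (0.0422%), with 3135 (18.9%) at an unadjusted p under 0.05. Of the 155, 110 also had a called slope, which is 71.0% of them and 16.2% of the 681 genes with a called slope. Without E12.5, E14.5 or E15.5 the split called 0 genes, and without E13.5 206. Among called genes the 5 most negative changes were in Prss45, Clca1, Cyp2c55, Trim61 and Myh4. Prss45, a serine protease, stood at 0.75, 0.68, 0.37 and 0.22 in knockout testes and at 0.22, 0.43, 5.53 and 6.03 in heterozygous testes (late minus early -5.87 ± 0.44, adjusted p = 0.0205). The value of 0.22 in either genotype is the detection limit. Its heterozygous level thus stepped up between E13.5 and E14.5. The female differences of Prss45 were 0 on all 4 days, so its error may be too small. Trim61 stood at the limit on all days in knockouts and in the first 2 heterozygous samples, then at 5.58 and 6.20 (late minus early -5.41 ± 0.77, adjusted p = 0.0425). Clca1 (-5.66 ± 0.78), Cyp2c55, a cytochrome P450 (-5.44 ± 0.52), and Myh4, a fast muscle myosin (-5.18 ± 0.79), had adjusted p = 0.0403, 0.0274 and 0.0463. The knockout level of Clca1 was at the limit on all 4 days, so its change is taken against the limit.

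**Figure D3:**
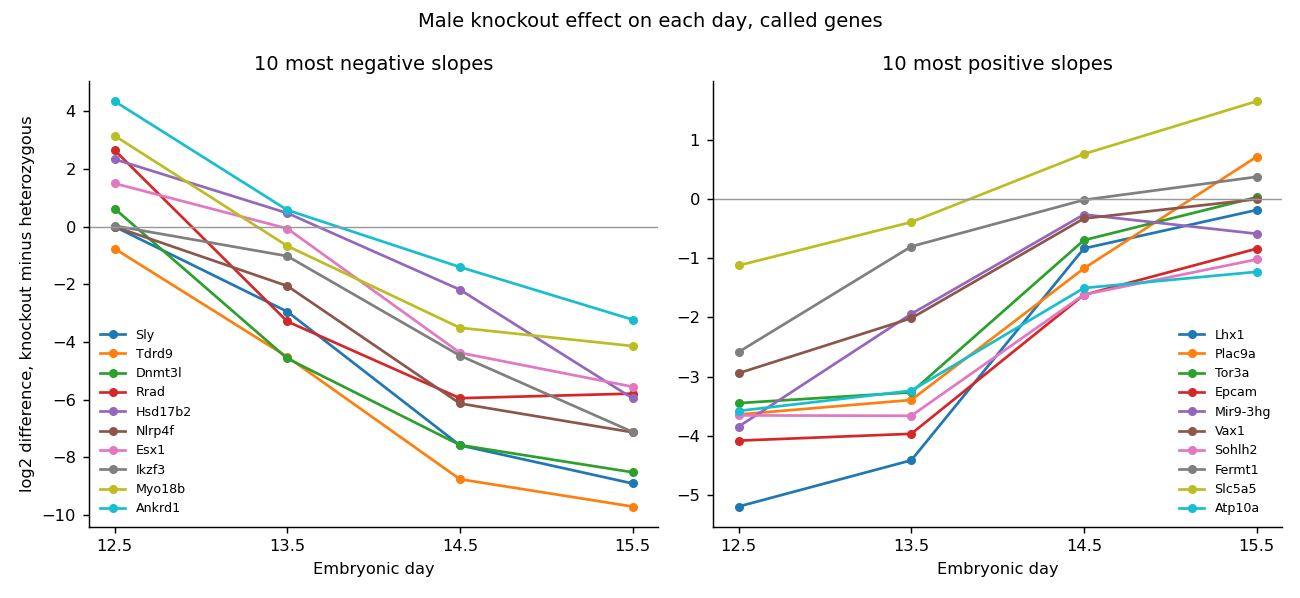
Log2 difference, knockout minus heterozygous males, on each embryonic day for the called genes with the 10 most negative slopes (left) and the 10 most positive slopes (right), on separate vertical scales. On the left 5 genes stand at least 1 above 0 at E12.5 and all 10 lie below -3 at E15.5, while on the right all 10 start below -1 and 8 end between -1.23 and 0.38.

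Genes of motile cilia and of striated muscle were also among those with a negative slope. Both lists were drawn up after values had been seen, so they carry no test and are described only. Of 25 tested cilium axoneme genes 13 had a called negative slope and 0 a called positive one, beside 3.66% and 0.446% of all genes (median slope -0.99 per day, beside 0.009 for all genes), and their median difference was 0.00, -0.52, -1.55 and -2.79 by day. Tekt1, a filament protein of the axoneme, stood at 0.21, -0.18, -0.73 and -0.94 in knockout testes and at -0.14, 1.53, 3.65 and 4.19 in heterozygous testes (slope -1.91 ± 0.18, adjusted p = 0.00724). Cfap43, needed for sperm flagella, was at the limit in 3 of 4 knockout samples, against 0.29, 1.13, 4.77 and 5.42 in heterozygous testes (slope -1.97 ± 0.31, adjusted p = 0.0225). Without E12.5 the median slope of the list was -1.10 per day and 3 genes were called. With quantile normalization the median was -0.48, without the common limit -0.62 and with all probes averaged -0.57.

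Of 30 striated muscle genes 12 had a called negative slope and 0 a called positive one, beside 3.66% and 0.446% of all genes (median -1.06 per day). At E12.5, 19 of the 30 were at least 2-fold higher in the knockout and 1 at least 2-fold lower, beside 2.65% and 5.17% of all genes. At E15.5, 0 were higher and 13 lower, beside 2.0% and 12.9%. The mean level over the list was 1.71, 0.15, -0.30 and -0.41 in knockout testes by day, against -0.16, 0.18, 0.46 and 1.16 in heterozygous testes. The E12.5 knockout sample stood apart in heart genes. Nppa, the atrial natriuretic peptide of the heart, was at 5.52, 0.63, 0.32 and -0.11 in knockout testes, and between -0.21 and 0.38 in heterozygous testes. Tnnt2, cardiac troponin T, was at 4.71, 0.90, 0.72 and 0.44 in knockout testes, against 0.82, 0.31, -0.30 and -0.30 in heterozygous testes. The slopes of Nppa (-1.64 ± 0.49, adjusted p = 0.117) and Tnnt2 (-0.90 ± 0.34, adjusted p = 0.18) did not pass the test, and without E12.5 they were -0.07 and 0.08.

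Ankrd1, a cardiac ankyrin repeat protein, stood at 5.01, 0.81, 0.48 and -0.25 in knockout testes and at 0.66, 0.23, 1.88 and 2.98 in heterozygous testes (slope -2.47 ± 0.27, adjusted p = 0.00909). Without E12.5 its slope was -1.90 (adjusted p = 0.0506). Ttn, the giant sarcomere protein, had differences of 2.56, 0.13, -1.67 and -3.14 and a slope of -1.89 ± 0.19 (adjusted p = 0.00751), or -1.63 without E12.5 (adjusted p = 0.0507). Myh3, the embryonic muscle myosin, had differences of 0.09, -1.26, -3.43 and -5.67, and its slope was called with E12.5 (-1.94 ± 0.13, adjusted p = 0.00339) and without it (-2.20, adjusted p = 0.0453). Rrad, a Ras-like protein of muscle, had a slope of -2.80 ± 0.52 (adjusted p = 0.0374), -1.25 without E12.5 (adjusted p = 0.207) and -4.30 without E15.5, where it was not called either. Myo18b, a myosin of muscle, had -2.47 ± 0.31 (adjusted p = 0.013), and -1.74 without E12.5 (adjusted p = 0.122), with its 2 probes at -2.47 and -0.21 and their mean at -1.34. Over the whole list the median slope without E12.5 was -0.44 per day, with 24 of 30 below 0 and 3 called. The part of heart or muscle RNA in these samples in the slopes was not tested.

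The 74 genes with a positive slope had a median difference of -0.85, -0.53, 0.16 and 0.55 by day. On E12.5, 27 were at least 2-fold lower and lay within 2-fold at E15.5, 4 were at least 2-fold lower on both days, and 35 lay within 2-fold on both. Another 7 lay within 2-fold at E12.5 and were at least 2-fold higher at E15.5, and 1 was at least 2-fold lower and then at least 2-fold higher. The knockout slope was called positive in 10 of the 74 and the heterozygous slope negative in 39. Over all genes tested these were 546 (3.29%) and 965 (5.82%). The heterozygous testes moved more in 52 of the 74, a share that was not counted over all genes tested either.

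Lhx1, a homeobox gene of kidney development that is also active in mouse spermatogonial stem cells, had the most positive slope among called genes. It stood at 0.03, -0.19, -0.47 and -0.49 in knockout testes and at 5.23, 4.23, 0.36 and -0.31 in heterozygous testes. The knockout stayed low on all days while the heterozygote came down to it, with a slope of 1.86 ± 0.26 (adjusted p = 0.0172) and a late minus early change of 4.30 ± 0.51 (adjusted p = 0.0323). Its 2 probes gave slopes of 1.86 and 2.12. Lhx1 is on the list of mesonephric genes. Of 7 tested genes of that list 1 other was called, Pax8, a kidney transcription factor, in the opposite direction (-0.85 ± 0.11, adjusted p = 0.0138). Pax8 was at -0.35, -1.01, -1.12 and -1.15 in knockout testes, against -1.43, -1.87, -0.55 and 0.13 in heterozygous testes.

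The promoters of Lhx1 and Nlrp4f are shown as examples of a closing and a deepening gene that differ in CpG content, with the letters CG in capitals. Both are 300 bases of RefSeq GRCm38.p6, as above.
Lhx1 (chr11:84525485-84525784, minus strand): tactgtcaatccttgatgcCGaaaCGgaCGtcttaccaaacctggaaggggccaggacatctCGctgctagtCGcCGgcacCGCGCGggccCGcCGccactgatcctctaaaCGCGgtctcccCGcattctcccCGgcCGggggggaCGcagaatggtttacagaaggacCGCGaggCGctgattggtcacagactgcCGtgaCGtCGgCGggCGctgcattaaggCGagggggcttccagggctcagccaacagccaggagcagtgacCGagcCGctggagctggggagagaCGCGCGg
Nlrp4f (chr13:65205667-65205966, minus strand): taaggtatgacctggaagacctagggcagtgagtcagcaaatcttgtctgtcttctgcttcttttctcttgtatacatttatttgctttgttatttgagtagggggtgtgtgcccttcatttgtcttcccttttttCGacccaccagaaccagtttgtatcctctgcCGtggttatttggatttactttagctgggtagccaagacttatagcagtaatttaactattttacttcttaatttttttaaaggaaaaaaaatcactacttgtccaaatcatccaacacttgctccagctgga
The Lhx1 promoter held 31 CG and the Nlrp4f promoter 2. The median number of CG was 19 in 63 promoters of genes with a positive slope and 10 in 487 of genes with a negative slope, with quartiles of 4 and 22 in these. It was 18 in 13270 promoters of tested genes, with quartiles of 8 and 27. The letters GCGGGA of the E2F motif, on either strand, were found in 38.1% of promoters with a positive slope, 21.1% with a negative slope and 31.5% of those tested. These are descriptions, with no test.

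Epcam and Sohlh2 were also among the 10 most positive called slopes. Epcam, a cell adhesion protein on primordial germ cells and epithelia, stood at -2.35, -2.50, -0.61 and -0.34 in knockout testes and at 1.73, 1.47, 1.0 and 0.49 in heterozygous testes. Both genotypes moved toward each other, with a slope of 1.21 ± 0.18 (adjusted p = 0.0206) and a late minus early change of 2.80 ± 0.43 (adjusted p = 0.0463). Neither genotype's own slope passed the test (adjusted p = 0.059 in knockout and 0.203 in heterozygous testes). Sohlh2, a germ cell transcription factor, stood at -0.42, -0.65, -1.46 and -1.26 in knockout testes and at 3.24, 3.01, 0.15 and -0.24 in heterozygous testes (slope 1.0 ± 0.19, adjusted p = 0.0381). Its gap narrowed without closing.

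Otx2, a homeobox gene of the early embryo, stood at the limit in 3 of 4 knockout samples. In heterozygous testes it was at 4.63, 5.38 and 1.13 and then at the limit, so at E15.5 no difference was measured. Its late minus early change was called (4.02 ± 0.57, adjusted p = 0.0425) and its slope was not (1.65 ± 0.36, adjusted p = 0.0541). Vax1, a homeobox gene of the ventral forebrain, stood at 0.44 and 0.21 and then at the limit in knockout testes, against 3.39, 2.22 and -0.25 and then the limit in heterozygous testes, so at E15.5 no difference was measured. Both measures of Vax1 were called (slope 1.05 ± 0.16, adjusted p = 0.0225). The other positive late minus early calls were Epb41l5 (1.78 ± 0.24), Siglecf (1.55 ± 0.22) and Pex7 (1.39 ± 0.22). The last 2 are named after their values were seen, and the 2 probes of Epb41l5 disagreed in the sign of the slope (0.65 and -0.45). With all probes averaged the late minus early change of Epb41l5 was 0.45, and with the arrays as deposited that of Pex7 was 0.91, neither of them called.

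Plac9a was the only one of the 10 most positive called slopes, apart from Slc5a5, in which the knockout testes moved by a called slope of their own. Plac9a stood at -2.22, -1.05, -0.15 and 1.09 in knockout testes and at 1.42, 2.35, 1.02 and 0.37 in heterozygous testes (slope 1.53 ± 0.24, adjusted p = 0.0239). Without E12.5 it was 2.06 and still called (adjusted p = 0.0453). Slc5a5, the sodium-iodide symporter, stood at -1.15, -1.15, 1.89 and 3.13 in knockout testes and at -0.03, -0.76, 1.12 and 1.47 in heterozygous testes (slope 0.95 ± 0.20, adjusted p = 0.0479). The remaining genes of the 10 were Tor3a, a torsin ATPase (1.30 ± 0.24), Mir9-3hg, a host of the miR-9 family (1.15 ± 0.24), Fermt1, an integrin adaptor (0.97 ± 0.18), and Atp10a, a lipid flippase (0.88 ± 0.16). Without E12.5 Mir9-3hg had a slope of 0.68 and Fermt1 of 0.59, and without E15.5 Mir9-3hg had 1.79, none of them called.

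Genes of the pluripotency network had 0 called slopes among 17 tested, with 7 at an unadjusted p under 0.05. Of the 17, 16, 14, 14 and 13 were at least 2-fold lower in knockout testes by day and 0 were at least 2-fold higher, beside 5.17%, 8.38%, 9.76% and 12.9% of all genes lower. Genes could pass the filter through the heterozygous samples alone, so a count of lower genes is in part built in. The median difference of the list was -4.09, -5.03, -3.83 and -3.01 by day. Of the 17, 10 had a slope above 0 and 7 below. Sox2, a core factor of the network, stood at -0.19, -1.26, -1.84 and -1.84 in knockout testes and at 5.81, 5.40, 3.37 and 0.95 in heterozygous testes. Its knockout values at E14.5 and E15.5 were equal, as they would be at the detection limit, so its late differences may be minima. Its slope of 1.11 ± 0.33 did not pass the test (adjusted p = 0.113). Nanog, another core factor, had differences of -4.09, -5.03, -4.34 and -3.01 (slope 0.39 ± 0.27, adjusted p = 0.429). Pou5f1, which encodes OCT4, ran the other way, with -5.58, -7.54, -8.60 and -8.69 (slope -1.04 ± 0.23, adjusted p = 0.0577).

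Of 11 listed genes of male germ fate and NODAL signalling 9 were tested. The called slopes were the 2 already given, Dnmt3l and Dnmt3a, beside 3.66% of all genes, and 0 were positive. The median slope of the list, -0.27, turned to 0.36 with quantile normalization and to 0.11 without the common limit. Nanos2, the RNA-binding protein that directs the male path, stood at the limit on all 4 days in knockouts, against 3.20, 8.23, 6.81 and 4.57 in heterozygous testes. It peaked at E13.5 in heterozygotes, and the straight-line slope was -0.27 ± 0.75 (adjusted p = 0.873). Lefty1, a feedback inhibitor of NODAL, stood at 0.04, 0.09, 1.12 and -1.20 in knockout testes and at 6.03, 6.27, 2.20 and 0.17 in heterozygous testes (slope 1.89 ± 0.68, adjusted p = 0.167). Lefty2, its close relative, stood at 0.40, 3.57, 4.31 and 4.64 in knockout testes and at 5.55, 5.10, 3.90 and 4.23 in heterozygous testes (slope 1.86 ± 0.47, adjusted p = 0.0791). Nodal, the ligand, had differences of -2.94, -3.98, -2.27 and -1.93, and Tdgf1, its co-receptor, of -1.45, -0.73, -0.42 and -0.55. The slopes were 0.47 ± 0.28 and 0.30 ± 0.10, and neither passed the test (adjusted p = 0.358 and 0.148).

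Of 22 tested meiosis genes 0 had a called slope (3 at an unadjusted p under 0.05, median slope -0.30, or 0.02 with quantile normalization). The median difference was -3.49, -4.88, -3.72 and -4.48 by day. In 5 of the 22 the knockout samples were at the detection limit on all days, and these passed the filter through other samples. Stra8, which marks entry into meiosis, had differences of -4.33, -8.11, -8.11 and -8.35 (slope -1.21 ± 0.56, adjusted p = 0.253). Of 23 pan-germline genes 3 had a called slope, Tdrd9, Tdrd1 and Piwil2, which are also piRNA pathway genes, all negative, beside 3.66% of all genes. The median difference of that list was -3.95, -6.20, -6.55 and -6.60. Dazl, a germ cell RNA-binding protein, was 222-fold lower at E12.5 and 65.2-fold lower at E15.5 (slope 0.75 ± 0.22, adjusted p = 0.114). Sycp3, of the synaptonemal complex, had a slope of 0.01 ± 0.38 (adjusted p = 0.993).

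**Figure D4:**
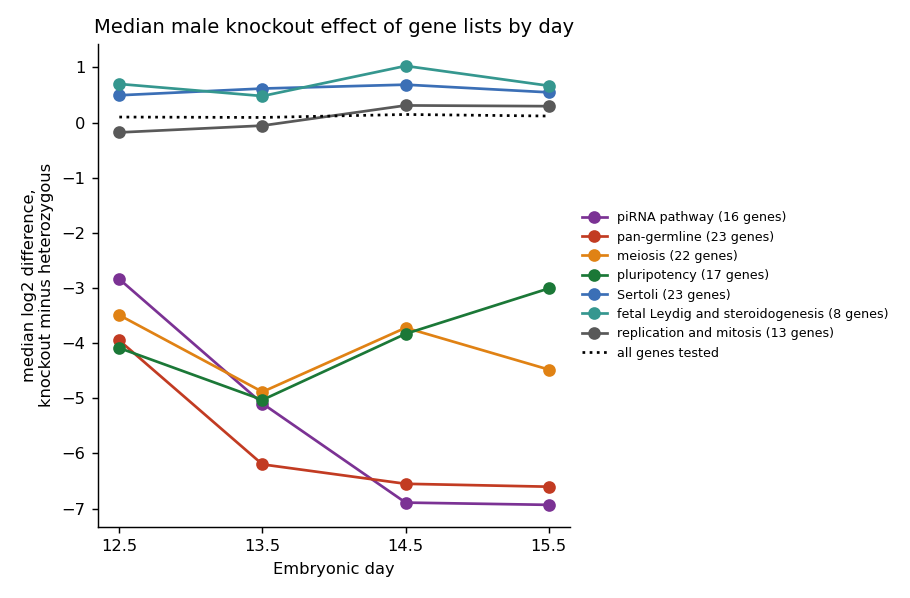
Median log2 difference, knockout minus heterozygous males, of 7 gene lists on each embryonic day, with all genes tested as a dotted line. The piRNA pathway list goes from -2.84 at E12.5 to -6.93 at E15.5, the pluripotency list ends at -3.01, and the Sertoli and Leydig lists stay between 0.48 and 1.03.

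The Sertoli and Leydig lists held 0 called slopes. Their median slopes shift with those of all genes when the arrays are taken as deposited, to -0.21 in both the Sertoli and the Leydig list, and with quantile normalization the Leydig median is 0.40. Of 23 Sertoli genes 0 had a called slope and 0 were at an unadjusted p under 0.05, with a median slope of -0.005 and median differences of 0.50, 0.62, 0.69 and 0.55. Sox9, the Sertoli determinant, had differences of 0.43, 0.86, 0.73 and 0.50 (slope 0.01, interval -0.19 to 0.21 per day, adjusted p = 0.972). Amh, the Sertoli hormone, had 0.53, 0.92, 1.02 and 0.85 (slope 0.11, interval -0.61 to 0.83, adjusted p = 0.876). Cyp26b1, which degrades retinoic acid, had 0.58, 0.82, 0.62 and 0.59 (adjusted p = 0.956). Of 8 tested Leydig and steroidogenesis genes 0 were called. Cyp11a1, the first enzyme of steroid synthesis, stood at 1.82, 5.33, 6.84 and 7.02 in knockout testes and at 0.92, 4.86, 5.70 and 6.37 in heterozygous testes, so it climbed in both and the difference had a slope of -0.01 (interval -0.43 to 0.42, adjusted p = 0.991). Star, the cholesterol carrier, had a slope of 0.10 ± 0.23 (adjusted p = 0.841).

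Of 10 cholesterol synthesis genes 1 was called, Idi1, an isomerase of the pathway (0.46 ± 0.09, adjusted p = 0.0385), or 0.25 and not called with the arrays as deposited. It stood at -0.32, 0.87, 1.62 and 1.84 in knockout testes and at 0.22, 0.87, 0.98 and 1.07 in heterozygous testes. The list had 9 slopes above 0 and a median of 0.24 per day. Of 13 replication and mitosis genes 0 were called, with 5 at an unadjusted p under 0.05, and all 13 slopes were above 0 (median 0.20 per day, beside 0.009 for all genes). Pcna, the sliding clamp of replication, had differences of -0.41, -0.10, 0.49 and 0.52 (slope 0.34 ± 0.08, adjusted p = 0.0697). With the arrays as deposited the median of the list was -0.008 and that of all genes -0.19. Of 13 interstitial genes 1 was called, Des, an intermediate filament of muscle-like cells (-0.53 ± 0.09, adjusted p = 0.0319), which was highest in the E12.5 knockout sample at 1.51. Its slope without E12.5 was -0.36 (adjusted p = 0.232). Pre-granulosa (15 genes), endothelial (14), macrophage (13), erythroid (11), granulocyte and mast cell (13), adrenocortical (2), immediate early and heat shock (14), mitotic arrest (14), housekeeping (9) and sex check (4) genes had 0 called slopes. Differences without a called slope remained in these lists. Egr4, of the immediate early list, had -5.87, -10.35, -10.85 and -10.43 by day. At E15.5, 1 gene of that list was at least 2-fold lower in knockouts and 1 at least 2-fold higher, beside 12.9% and 2.0% of all genes. Cdkn2b, of the mitotic arrest list, had -1.98, -4.04, -3.84 and -3.35. In that list 2 genes were lower and 0 higher at E15.5.

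The slope of the knockout effect differed between males and females in 132 genes (0.796%), lower in males in 125 (0.754%) and higher in 7 (0.0422%), with 2580 (15.6%) at an unadjusted p under 0.05. The female knockouts and heterozygotes share no sample with the males. The late minus early change differed between the sexes in 0 genes by limma, with 2138 (12.9%) at an unadjusted p under 0.05. Without any 1 of the days, 0 genes were called for the slope. Pou5f1 had male differences of -5.58, -7.54, -8.60 and -8.69, and female differences of -7.73, -5.02, -3.51 and -0.81. The female difference shrank from day to day and the male difference did not, with a male minus female slope of -3.27 (adjusted p = 0.022). Dppa3, a germ cell and early embryo gene, had -6.40, -8.04, -9.11 and -9.30 in males and -8.11, -4.96, -3.18 and -1.57 in females (-3.12, adjusted p = 0.022). Knockout testes lost both transcripts over the days, with slopes of their own of -1.33 ± 0.29 for Pou5f1 (adjusted p = 0.0245) and -2.03 ± 0.36 for Dppa3 (adjusted p = 0.011). Utf1, a chromatin protein of pluripotent cells, was the third of the 17 pluripotency genes called here (-1.26, adjusted p = 0.039).

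Phlda2, an imprinted gene that limits placental growth, had the largest male minus female slope among the called genes (-3.88, adjusted p = 0.0153). Its levels were -0.54, -1.02, -3.41 and -3.36 in knockout testes and 0.08, 0.49, 1.27 and 2.23 in heterozygous testes, a male slope of -1.81 ± 0.24 (adjusted p = 0.0156) against 2.07 in females. Piwil2 differed by -1.39 (adjusted p = 0.039), and its female differences stayed between -5.71 and -5.28. For Dnmt3l the male minus female slope of -2.89 missed the threshold (adjusted p = 0.122), and its female differences ran from -0.28 to 1.73. The 3 largest positive differences were in Arrdc5 (1.43), Zmynd12 (1.43) and Tex22 (1.41), each with an adjusted p = 0.039. Their male slopes were 0.60, -0.09 and 0.41, against -0.83, -1.52 and -0.99 in females.

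**Figure D5:**
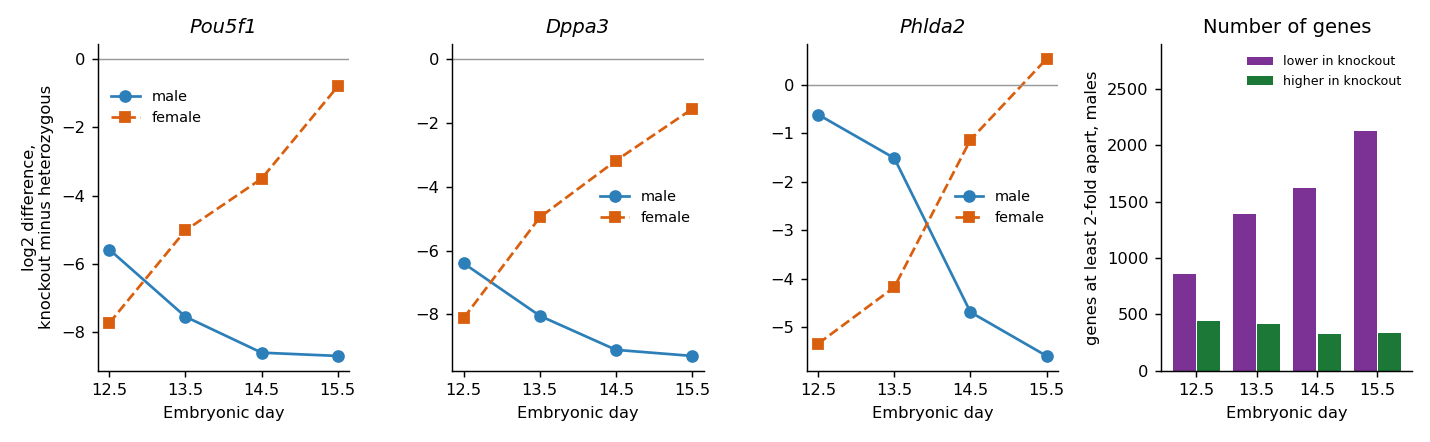
The first 3 panels show the log2 difference, knockout minus heterozygous, on each embryonic day in males (circles) and females (squares) for Pou5f1, Dppa3 and Phlda2, which run in opposite directions in the sexes. The right panel shows the number of genes at least 2-fold lower and at least 2-fold higher in knockout males on each day, with 857 lower at E12.5 and 2131 at E15.5.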

How the data were processed

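Per the labels' protocols, total RNA of whole embryonic gonads was amplified and labelled with Cy3. Agilent Feature Extraction 9.5 is named in the submitters' processing notes. The values deposited by the authors are linear ratios of a probe's signal to its typical signal, as the values themselves show, with a lowest value of 0.01. How the arrays were scaled, the probes centred and replicates 1 and 2 combined is not given in the sources used here, and no separate replicates were analysed. The main design had assumed intensities or log2 values, and the ratios were taken to log2 instead.

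Weak signals shared a limit in each sample, recovered from ratios that many probes share (tolerance 2e-04, log2). Of 41267 probes, 93 control probes were left out. Of the rest, 32664 have 1 gene symbol, 45 several and 8465 none in the platform annotation, with symbols updated through the RefSeq GRCm38.p6 table. The 75th percentile of the 28373 probes never at the limit was made equal in all arrays, and all values were raised to the highest of the 16 limits. The filter kept 16581 genes with 4 or more of 16 samples above the limit. A gene with several probes was read from the one least often at the limit.

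The tool was limma 3.58.1 in R 4.3.3, with lmFit and trended eBayes on all 16 samples. The model held a block for every day within a sex, a knockout effect in each sex and its change, which leaves 4 residual degrees of freedom. Slopes within each group left 8. The samples are paired by embryonic day, as the labels give it. The days act as replicates, any bend away from a line counts as error, and nothing in the labels shows separate litters behind the pooled samples. Calls use Benjamini-Hochberg adjusted p under 0.05 over all 16581 genes, and ± gives limma's standard error. In a simulation of the slope fit on 16581 genes, 32% of slopes of 0.5 per day were recovered, 80% of 1.0, 94% of 2.0 and 100% of 3.0, with 7 false calls. The simulated noise was normal and independent around straight lines, with no values at the limit and no slope in females. The real data have bends and values at the limit, so these rates need not hold for them. The number of arrays limits the precision.

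Genes are named by rule: the 10 largest called slopes in each direction, the 5 largest called late minus early changes, the 3 largest differences between the sexes, the 4 smallest p in each gene list, and a fixed set of germ cell genes. Others are said to be chosen after their values were seen. The gene lists and the named set were chosen with earlier results of these data known. Alternatives were array weights, no trend, other scalings, other filters, all probes averaged, males alone, no term for day and leaving out each day.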

Additional observations from a re-analysis of the deposited data

Results flagged for a closer look

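Among 154 groups of 4 days tested for an outlying day, 10 stood apart from the other 3 by Dixon's criterion. For values without ties chance gives this in about 1 group in 20. The groups come from genes picked to be named here, many for large changes. The 4 samples of a group are different days, so a change with day can also set one apart. In knockout testes the E12.5 level was apart in Nppa (5.52), Tnnt2 (4.71), Esx1 (1.85), Cfap43 (0.50), Myh4 (-0.62) and Stra8 (-4.98). In heterozygous testes the E12.5 level of Stra8 was apart at -0.65. The knockout level was apart at E13.5 in Henmt1 (0.33) and Otx2 (0.83), and at E14.5 in Sly (1.12). In Henmt1, Otx2, Sly, Esx1 and Cfap43 the other 3 knockout samples were at the detection limit, so the rate of 1 in 20 does not apply to them.

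The slope of the knockout effect differed between males and females in 132 genes. Among the genes named here the male minus female slope was negative in Phlda2 (-3.88), Pou5f1 (-3.27), Dppa3 (-3.12), Hsd17b2 (-2.31), Tekt1 (-1.85), Ttn (-1.84), Myh3 (-1.80), Piwil2 (-1.39) and Utf1 (-1.26). It was positive in Arrdc5 (1.43), Zmynd12 (1.43) and Tex22 (1.41).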

How the results depend on the processing

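Without any 1 of the days, and under the other scalings and probe rules tried, the 681 called slopes kept their sign, except 2 with quantile normalization and 1 with all probes averaged. The 681 were picked by their slope in the same data, so a kept sign is no separate support. Males alone, other filters and fits with no trend leave the slopes as they are, and the stricter filter tested 631 of them. The number called was 2050 with the arrays as deposited (30 positive, 2020 negative), 255 with quantile normalization, 132 with no filter and 0 in male samples alone (3824 at an unadjusted p under 0.05), and leaving out a day gave 2 to 154. For the late minus early change it was 388 with array weights, 1366 as deposited, 262 scaled to the median, 80 with no common limit, 66 with no filter, 6 with quantile normalization and 0 in males alone, and 0 to 206 without a day. For the difference of slopes between the sexes it was 283 as deposited, 30 with no common limit, 13 with quantile normalization, 11 with array weights, 11 with no filter, and 0 without any day. For the late minus early difference between the sexes it was 29 with no filter and 3 with no trend, and 0 in the other fits that kept the term for day. Slopes within knockout testes were called in 5148 genes with array weights and 506 as deposited, and in 0 to 1126 without a day. Slopes within heterozygous testes were called in 6515 genes with array weights and in 261 to 2821 without a day. Late minus early, Uty reversed to -1.71 with the arrays as deposited, against 0.14. The causes were not tested. The samples are paired by day in these fits. With no replicate block for the day, 261 slopes were called, 248 of them among the 681, and 138 late minus early changes, 11 differences of slopes and 1 late minus early difference between the sexes.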
